A study of Mus musculus with 17 samples.

Results

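This report describes 10 mouse genes of the liver X receptor (LXR) pathway in splenic dendritic cells that had met debris of dying tumor cells. The genes are Nr1h2 and Nr1h3, Abca1, Abcg1 and Apoe, Mylip, Srebf1, Scd1, Scd2 and Lpcat3, which are 10 of the 31091 genes in the count table. They were selected on measured values of these samples, because Scd1 and Abca1 were among the largest falls with debris against medium of live cells. The other 8 genes joined them as the receptors and further targets of the same pathway, with earlier results of these data known. For this reason their differences between debris and WT medium are given as a description without p-values, and where one of them is said to have passed the threshold of edgeR in that contrast, this only describes its place among all genes. Scd1 and Abca1 themselves were chosen on samples that every other comparison shares, so their values are a description throughout and carry no p-values. The other 8 genes are tested between the debris types, between the cell types and for a difference in response between the cell types.

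LXRα (Nr1h3) and LXRβ (Nr1h2) are nuclear receptors that sense oxysterols, the oxidized forms of cholesterol. They bind DNA as heterodimers with a retinoid X receptor and, when a ligand is present, turn on genes that carry cholesterol out of the cell, limit its uptake and make unsaturated fatty acids. A phagocyte that takes up a dead cell also takes in the cholesterol of that cell, and the LXR pathway is one of the routes by which phagocytes are known to handle this load. A separate pathway, driven by SREBP2, turns on cholesterol synthesis and uptake when sterols in the endoplasmic reticulum are low.

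The cDCs came from spleens of female C57BL/6JRj mice, aged 8 weeks when bought, that carried B16 tumors expressing FLT3 ligand, which expands dendritic cells, and the spleens of several mice were pooled per experiment. CD11c+ cells were cultured for 6 h in the presence of GM-CSF with medium of TC-1 cells, a C57BL/6 lung epithelial tumor line that carries HPV16 E6 and E7 and H-ras. In the WT groups the medium came from live TC-1 WT cells. In the BimS groups it held debris of apoptotic TC-1-iBimS cells, which overexpress the BH3-only protein BimS, and in the RIPK3 groups debris of necroptotic TC-1-iRIPK3 cells, which overexpress a self-oligomerizing RIPK3. Both are single clones under a cumate switch, and the tumor cells of every group, WT included, received cumate. After culture, cDC1s and cDC2s were sorted by flow cytometry, so that both cell types had shared the culture, the tumor-bearing hosts and the cytokine. There were 3 samples in each of the 6 groups of cell type and medium, except for cDC2s with RIPK3 debris, of which 2 were analysed here. A difference between BimS or RIPK3 and WT medium is a difference in clone and in cell death together, which cannot be told apart. Likewise, RIPK3 and BimS debris differ in clone, in transgene and in mode of death together. The paper also reports that both cell types took up apoptotic debris more efficiently than necroptotic debris.

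Between 16.1 M and 21.6 M reads per sample were counted on genes (median 19.0 M). The sorted cells carried the markers of their labels. The summed level of 8 cDC1 markers was 1410 to 1740 CPM (CPM, read counts scaled to a common library size by TMM) in the cDC1 samples and 99 to 132 CPM in the cDC2 samples, and that of 8 cDC2 markers was 2.63 to 4.13 CPM and 287 to 375 CPM. B cell, T and NK cell and neutrophil markers each summed to at most 2.81 CPM in any sample. The 6 markers of plasmacytoid dendritic cells summed to 75.2 to 83.8 CPM in cDC1s with WT medium, 64.5 to 71.2 CPM with BimS debris and 69.7 to 71.7 CPM with RIPK3 debris, and in cDC2s to 193 to 218, 189 to 203 and 174 to 176 CPM. In bulk samples, fewer cells of a type and less RNA per cell cannot be told apart. Where nothing says that samples came from separate mice, p-values measure the spread between these samples only.

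The DNA element of LXR is a direct repeat, and 2 promoters of the pathway that held a match to it are shown, since their genes are set side by side with debris further on. The match was searched in RefSeq promoter windows of 300 bases, from 250 before to 50 after a gene start, on both strands, as a pair of NGGTNA elements in the same direction with 4 bases between them. Windows were held for 7 of the 10 genes (12 windows), and each was placed on GRCm39 by its only exact match. The element was found in 0.718% of all 32851 windows. Among these 12 it was found for Abca1, from 67 to 52 bases before the start at the 5′ edge of the gene, and for Srebf1, from 182 to 167 bases before an internal start that lies in an intron of the longer transcripts. Both are on the strand opposite to the gene. The sequences below are written in the direction of the gene, with the matched bases in capitals. They come from chr4:53159925-53159984 (GRCm39, minus strand) and chr11:60101442-60101501 (GRCm39, minus strand), of which the second also overlaps an exon of the long non-coding gene Gm73277 on the other strand.
Abca1: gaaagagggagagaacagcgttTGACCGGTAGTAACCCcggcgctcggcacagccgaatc
Srebf1: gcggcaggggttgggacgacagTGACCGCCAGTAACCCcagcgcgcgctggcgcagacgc
The motifs TCACNCCAC, a sterol element bound by SREBPs (1.24% of all windows), and AGGTCA, the strict receptor element (16.3%), were in none of the 12 windows. CCAAT (37.4% of all windows) was in the windows of Lpcat3, Mylip and Srebf1, and TATAAA (13.6%) in those of Abca1, Mylip and Apoe. A match is a description of letters and not of binding.

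With debris, cDC1s had lower levels of the exporters Abca1 and Abcg1 and of the desaturases Scd1 and Scd2 and a higher level of Mylip, whereas the receptors, Srebf1, Lpcat3 and Apoe did not pass the test of edgeR. In cDC2s, Abcg1, Scd1 and Scd2 were lower and Abca1 and Mylip did not pass. All 10 genes passed the filter on low counts in every comparison. In cDC1s with BimS debris 1 of 10 was higher and 4 were lower at an adjusted p under 0.05, beside 7.31% of all 19513 genes higher and 5.89% lower, and the median log2 fold change was -0.41 over the 10 genes and 0.002 over all genes. In cDC1s with RIPK3 debris the counts were again 1 higher and 4 lower, beside 8.34% and 8.19% of all genes, with medians of -0.39 and -0.006. In cDC2s none was higher and 3 were lower with BimS debris, beside 3.8% and 3.21% of all 19239 genes (medians -0.19 and -0.019). With RIPK3 debris none was higher and 3 were lower in cDC2s, beside 3.93% and 3.28% (medians -0.15 and -0.022). Since the genes were selected on this contrast, nothing is read from these counts, and both debris comparisons of a cell type share their WT samples.

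**Figure D1:**
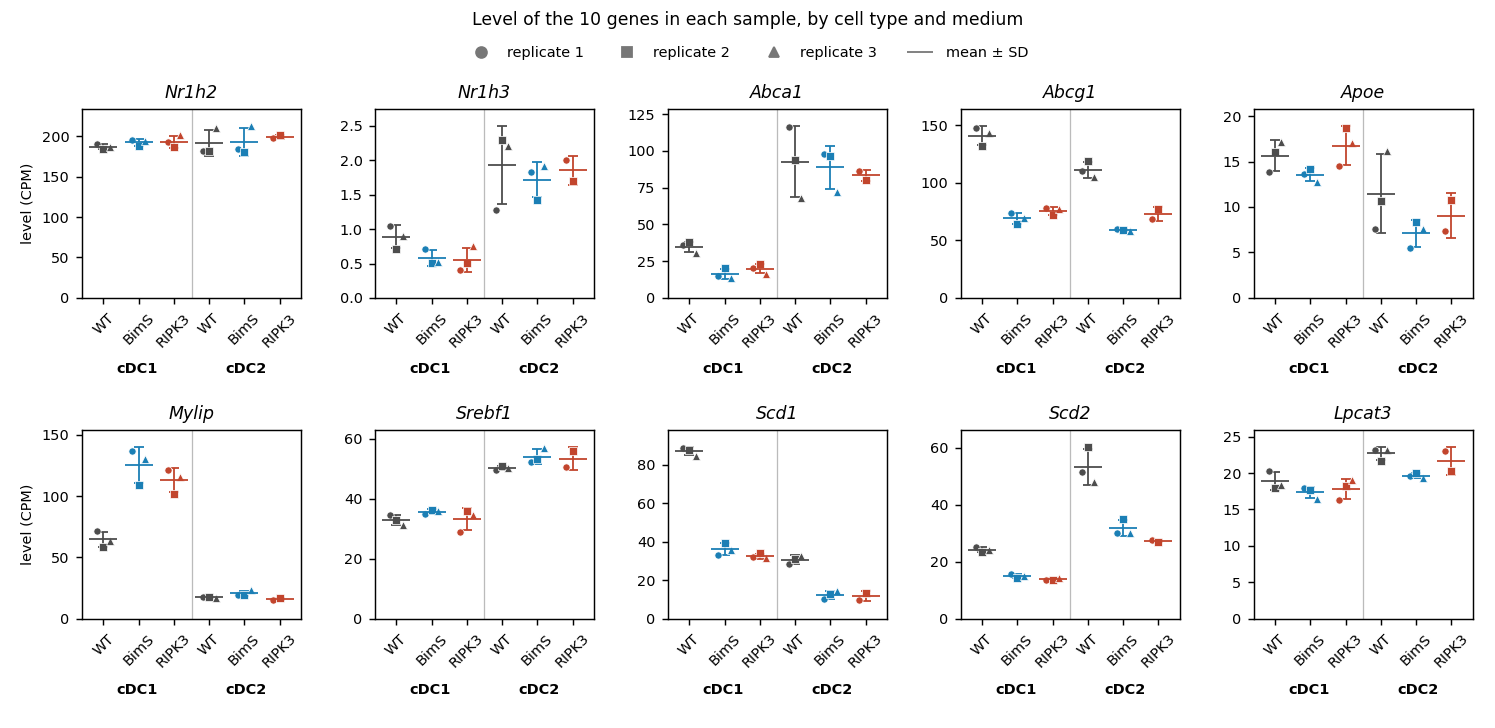
Level of each of the 10 genes in CPM (vertical axes, each from 0) in every sample, by cell type and medium. Points are samples with the shape giving the replicate number, and horizontal lines with bars are the mean ± SD of the group. Scd1, Scd2 and Abcg1 with debris lie below WT in both cell types, Abca1 in cDC1s only, and Mylip with debris lies above WT in cDC1s.

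Nr1h2 (chr7:44199036-44203406, minus strand, GRCm39, ENSMUSG00000060601), which encodes LXRβ, was the abundant receptor of these cells. Its level was 190, 184 and 186 CPM in the 3 cDC1 samples with WT medium, 196, 187 and 194 CPM with BimS debris and 193, 186 and 201 CPM with RIPK3 debris. In cDC2s it was 181, 182 and 210 CPM with WT medium, 184, 181 and 212 CPM with BimS debris and 197 and 201 CPM with RIPK3 debris. The groups overlapped throughout, and the log2 fold changes between debris and WT medium lay between 0.01 and 0.05 in both cell types. The third cDC2 sample was the highest with both WT medium and BimS debris.

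Nr1h3 (chr2:91014394-91033417, minus strand, ENSMUSG00000002108), which encodes LXRα, was very low, with 8 to 41 counts per sample. The mean was 0.89 ± 0.17 CPM (SD, n = 3) in cDC1s with WT medium, 0.58 ± 0.11 with BimS debris and 0.55 ± 0.18 with RIPK3 debris. In cDC2s it was 1.93 ± 0.56, 1.72 ± 0.26 and 1.85 ± 0.22 CPM (n = 3, 3 and 2). The log2 difference from WT medium in cDC1s was -0.61 ± 0.35 (SE) with BimS debris and -0.70 ± 0.36 with RIPK3 debris, and the groups overlapped. Neither passed. Per kilobase of exon, Nr1h2 stood at 53.9 and Nr1h3 at 0.175 CPM in cDC1s with WT medium. Nr1h3 shares 256 exon bases with Acp2 on the opposite strand, which had 288 to 419 counts, and the sources used here do not say whether reads were counted by strand, so reads of the 2 genes cannot be told apart there.

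Abca1 (chr4:53030787-53159900, minus strand, ENSMUSG00000015243) moves cholesterol and phospholipid onto lipid-poor apolipoprotein and is the best known LXR target. In cDC1s it was 35.7, 37.8 and 30.8 CPM with WT medium, 14.8, 20.4 and 13.8 CPM with BimS debris and 20.5, 22.8 and 16.4 CPM with RIPK3 debris. Every debris sample lay below every WT sample. The log2 fold change was -1.08 ± 0.17 (SE) with BimS debris and -0.80 ± 0.17 with RIPK3 debris. Without cDC1 WT replicate 1 (-0.78) or cDC1 RIPK3 replicate 1 (-0.82) the fall with RIPK3 debris no longer passed. In cDC2s Abca1 was 116, 93.6 and 67.7 CPM with WT medium, 98, 96.6 and 72.0 CPM with BimS debris and 86.1 and 80.4 CPM with RIPK3 debris. The WT samples of cDC2s differed widely and spanned the debris samples with RIPK3. The log2 differences were -0.06 ± 0.20 and -0.16 ± 0.22, and neither passed. With the replicate number of the labels as a block, the cDC2 value with RIPK3 debris was -0.32 ± 0.06 and passed, as did 4126 of all 19239 genes, against 1387 without the block.

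Abcg1 (chr17:31276649-31336969, plus strand, ENSMUSG00000024030), which loads cholesterol onto HDL, fell in both cell types. In cDC1s its level was 147, 132 and 144 CPM with WT medium, 73.5, 64.3 and 69.5 CPM with BimS debris and 78.1, 71.8 and 77.2 CPM with RIPK3 debris. Its cDC2 levels were 110, 119 and 105 CPM, then 59.5, 58.9 and 58.2 CPM, then 68.6 and 76.9 CPM. No debris sample reached the lowest WT sample of its cell type. Abcg1 was 2.04-fold lower with BimS debris and 1.86-fold lower with RIPK3 debris in cDC1s (log2 fold changes -1.03 ± 0.06 and -0.90 ± 0.06), and 1.89-fold and 1.53-fold lower in cDC2s (-0.92 ± 0.09 and -0.62 ± 0.10).

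Apoe (chr7:19430034-19434947, minus strand, ENSMUSG00000002985) encodes the apolipoprotein that accepts exported cholesterol. It was 13.8, 16.1 and 17.1 CPM in cDC1s with WT medium, 13.6, 14.2 and 12.8 CPM with BimS debris and 14.5, 18.7 and 17.1 CPM with RIPK3 debris. In cDC2s it was 7.54, 10.7 and 16.2 CPM with WT medium, 5.47, 8.34 and 7.58 CPM with BimS debris and 7.31 and 10.8 CPM with RIPK3 debris. The cDC2 samples with WT medium varied by more than the groups differed. The log2 differences from WT medium were -0.21 ± 0.10 and 0.09 ± 0.10 in cDC1s and -0.68 ± 0.29 and -0.34 ± 0.32 in cDC2s, with BimS and RIPK3 debris in that order, and none passed. In cDC2s with BimS debris, Apoe passed with the replicate block (-0.66 ± 0.12).

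Mylip (chr13:45543215-45565501, plus strand, ENSMUSG00000038175), also called Idol, encodes a ubiquitin ligase through which LXR limits the uptake of cholesterol. It was the only one of the 10 genes that was higher with debris at an adjusted p under 0.05, and only in cDC1s. In cDC1s it was 71.4, 58.9 and 63.8 CPM with WT medium, 137, 109 and 130 CPM with BimS debris and 121, 102 and 116 CPM with RIPK3 debris. Every debris sample of cDC1s lay above every WT sample, with log2 fold changes of 0.95 ± 0.10 and 0.80 ± 0.10. In cDC2s Mylip was 18.1, 17.4 and 17.4 CPM with WT medium, 19.7, 19.4 and 23.3 CPM with BimS debris and 15.7 and 16.7 CPM with RIPK3 debris. The cDC2 groups lay close together, with BimS samples just above and RIPK3 samples just below WT, and the log2 differences of 0.24 ± 0.11 and -0.13 ± 0.12 did not pass. With the replicate block the value for BimS debris was 0.23 ± 0.08 and passed.

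**Figure D2:**
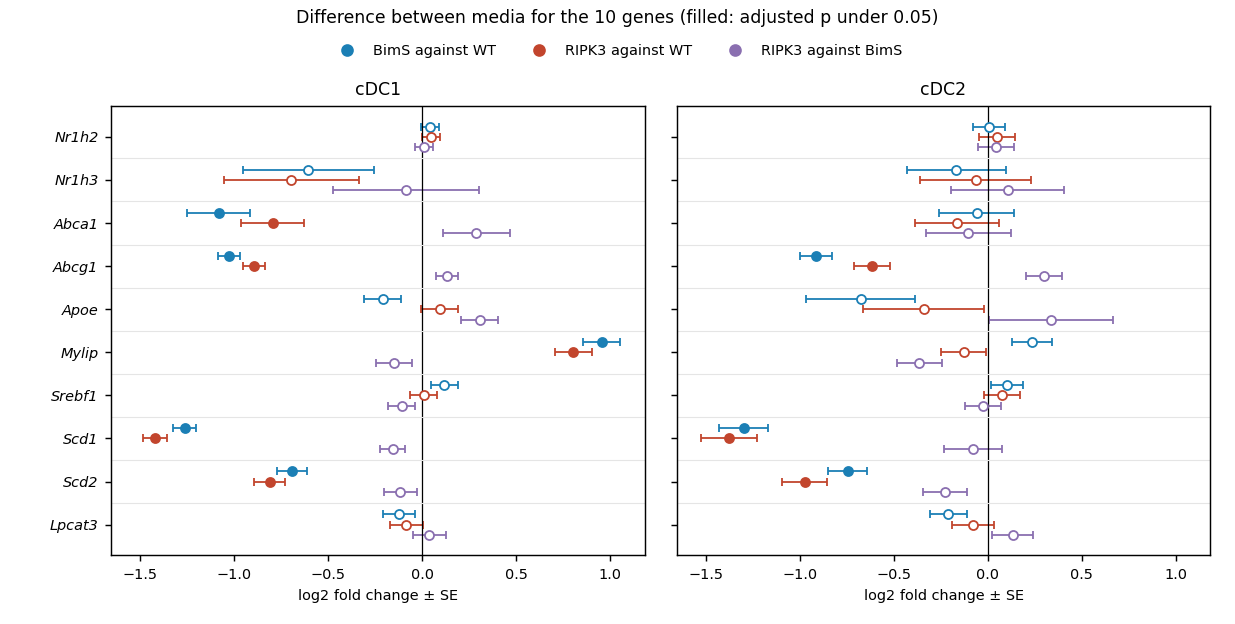
Log2 fold change ± SE (horizontal axes) of the 10 genes between media, in cDC1s (left) and cDC2s (right), from edgeR. Filled points had an adjusted p under 0.05 over all genes tested; Scd1 lies at -1.26 to -1.42 in all 4 comparisons with WT medium and no gene is filled between RIPK3 and BimS debris.

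In the lipogenic arm, Scd1 and Scd2 were lower with debris, and Srebf1 and Lpcat3 did not pass. Srebf1 (chr11:60089913-60113407, minus strand, ENSMUSG00000020538) encodes SREBP1, the transcription factor of fatty acid synthesis, and its short form is an LXR target. It was 34.7, 33.0 and 31.4 CPM in cDC1s with WT medium, 35.0, 36.3 and 35.9 CPM with BimS debris and 29.1, 35.9 and 34.5 CPM with RIPK3 debris. Its cDC2 levels were 49.7, 51.0 and 50.2 CPM, then 52.2, 53.1 and 56.9 CPM, then 50.7 and 56.1 CPM. The log2 differences from WT medium lay between 0.01 and 0.12 and none passed. The promoter of Srebf1 and that of Abca1, shown above, both hold the LXR element match, and in cDC1s Abca1 was lower with debris while Srebf1 did not pass. Counts over the whole gene cannot tell the short from the long form.

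Scd1 (chr19:44382894-44399154, minus strand, ENSMUSG00000037071) encodes the stearoyl-CoA desaturase that makes oleate and palmitoleate. In cDC1s it was 88.7, 87.8 and 84.8 CPM with WT medium, 33.3, 39.6 and 35.7 CPM with BimS debris and 32.0, 34 and 31.4 CPM with RIPK3 debris. In cDC2s it was 28.2, 31.3 and 32.5 CPM with WT medium, 10.3, 12.8 and 14.3 CPM with BimS debris and 10.0 and 13.7 CPM with RIPK3 debris. Each debris group lay far below its WT group. Scd1 was 2.4-fold and 2.68-fold lower in cDC1s and 2.46-fold and 2.6-fold lower in cDC2s (log2 fold changes -1.26 ± 0.06, -1.42 ± 0.06, -1.30 ± 0.13 and -1.38 ± 0.15).

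Scd2 (chr19:44281613-44295303, plus strand, ENSMUSG00000025203), a neighboring desaturase gene of the same family, fell less. In cDC1s it was 25.3, 23.4 and 24 CPM with WT medium, 15.6, 14.2 and 15.1 CPM with BimS debris and 13.4, 13.7 and 14.3 CPM with RIPK3 debris. Among cDC2s it was 51.5, 60.2 and 48.1 CPM, then 30.2, 35.0 and 29.9 CPM, then 27.5 and 27.1 CPM. No debris sample reached a WT sample of its cell type. The log2 fold changes were -0.69 ± 0.08 and -0.81 ± 0.08 in cDC1s and -0.75 ± 0.10 and -0.97 ± 0.12 in cDC2s. Scd1 and Scd2 are similar in sequence, and how reads that fit both were counted is not given in the sources used here.

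Lpcat3 (chr6:124639765-124684440, plus strand, ENSMUSG00000004270) places polyunsaturated fatty acids into membrane phospholipids. Its mean was 18.9 ± 1.24, 17.4 ± 0.77 and 17.9 ± 1.38 CPM in cDC1s with WT medium, BimS and RIPK3 debris (SD, n = 3 each), and 22.7 ± 0.86, 19.6 ± 0.36 and 21.6 ± 1.90 CPM in cDC2s (n = 3, 3 and 2). The log2 differences from WT medium lay between -0.21 and -0.08 and none passed. With the replicate block the value in cDC2s with BimS debris passed (-0.21 ± 0.08), so that 6 of the 10 genes passed in that comparison, 1 higher and 5 lower, beside 2116 higher and 1987 lower of all 19239 genes in the same fit (4103 in all, against 1349 without the block). Lpcat3 shares 4277 exon bases with Emg1 on the opposite strand, which had 1046 to 1566 counts against 320 to 451 for Lpcat3, so its level is uncertain. Srebf1 shares 114 exon bases with Rai1 on the opposite strand.

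The selection can be placed among all falls. Among genes that fell in a comparison that averaged 3 or more in log2 CPM and had groups without overlap, Scd1 ranked 1 of 889 and Abca1 3 in cDC1s with BimS debris, with Enpp4 (-1.12) between them and Snx22 (-1.04) just after Abca1. Abcg1 ranked 6 and Scd2 44. In cDC1s with RIPK3 debris Scd1 ranked 8 of 1175 and Abcg1, Scd2 and Abca1 ranked 60, 79 and 81. Scd1 ranked 3 of 447 in cDC2s with BimS debris, just before Xaf1 (-1.29), and 29 of 470 with RIPK3 debris.

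The summed level of 12 macrophage markers moved with the medium. In cDC1s it was 65.6 to 68.9 CPM with WT medium, 39.3 to 48.4 CPM with BimS debris and 28.8 to 31.3 CPM with RIPK3 debris, and in cDC2s 47.6 to 60.8, 41.8 to 43.3 and 32.1 to 36.5 CPM. In cDC1s 3 of the 12 were lower with BimS debris and 2 with RIPK3 debris, in cDC2s 1 and 2 were lower, and none was higher. Of all genes, 5.89% and 8.19% were lower in cDC1s and 3.21% and 3.28% in cDC2s. Most of the sum came from Timd4 and Fcgr1, which together gave 59 to 64, 35.5 to 44.9 and 22 to 27.4 CPM in cDC1s and 42.1 to 46.7, 35.3 to 37 and 25 to 26.5 CPM in cDC2s with WT medium, BimS and RIPK3 debris. The other 10 markers, a split made after the values were seen, summed to 4.68 to 8.49, 3.46 to 4.28 and 3.97 to 6.79 CPM in cDC1s and to 5.44 to 14, 5.41 to 6.5 and 7.05 to 9.96 CPM in cDC2s. Siglec1 was at 0 in all cDC1 samples with BimS debris, and C1qa averaged at most 0.70 CPM in any group. The summed level of the plasmacytoid dendritic cell markers also lay below WT with both debris types in cDC1s and with RIPK3 debris in cDC2s. In cDC1s 1 of the 5 tested was lower with each debris (Tcf4), and in cDC2s 1 of 6 with RIPK3 debris (Bst2). These counts stand beside the same shares of all genes. A fall of these markers may come from fewer such cells or from less marker RNA in any cell, which cannot be told apart. The paper found interferon response terms among genes higher with WT medium in cDC1s and in cDC2s, and their part in these marker falls was not tested. The part of macrophages or plasmacytoid dendritic cells in the falls of Abca1, Abcg1, Scd1 and Scd2 was not tested. The 9 epithelial markers of tumor cells summed to 22.7 to 24.1, 23.1 to 26.6 and 20.2 to 25.5 CPM in cDC1s with WT medium, BimS and RIPK3 debris, and to 35.5 to 44.1, 39.2 to 49.5 and 30.6 to 37.6 CPM in cDC2s. Nearly all of the sum came from Met in cDC1s and from Cdh1 and Met in cDC2s. None of the 8 tested passed in cDC1s with either debris. Of all genes in cDC2s, 3.8% were higher with BimS debris and 3.93% with RIPK3 debris. Of the 6 tested in cDC2s, Met alone passed and was higher with both, at 4.26 ± 0.93 CPM with WT medium, 15.3 ± 1.61 CPM with BimS debris and 11.7 ± 0.40 CPM with RIPK3 debris (SD, n = 3, 3 and 2), and its part in the results of the 10 genes was not tested. Krt8 averaged at most 0.10 CPM in any group and Cldn4 at most 0.02 CPM.

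Between RIPK3 and BimS debris none of the 10 genes passed in either cell type. In cDC1s 1.94% of all genes were higher and 2.21% lower, and in cDC2s 0.161% and 0.218%. DESeq2 also called 0 of the 10, as did limma, which was run on counts without normalization. The fit with no filter called 2 in cDC1s and 0 in cDC2s. At an unadjusted p under 0.05, edgeR gave Apoe (log2 fold change 0.31, adjusted p = 0.0832), Abcg1 (0.13, adjusted p = 0.258) and Scd1 (-0.16) in cDC1s, and Abcg1 (0.30, adjusted p = 0.276) and Mylip (-0.37, adjusted p = 0.303) in cDC2s. For Scd1 the 95% interval of the difference was -0.29 to -0.02 in cDC1s and -0.40 to 0.24 in cDC2s. For Abca1 it was -0.12 to 0.70 and -0.62 to 0.41. In cDC1s Abca1 passed without BimS replicate 2 (0.49), and Apoe passed without RIPK3 replicate 1 (0.41, adjusted p = 0.0116). A value that misses the threshold does not show that the debris types act alike.

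Samples of the same replicate number deviated together within a cell type, and with the number as a block several genes did differ between the debris types. In cDC1s Apoe (log2 fold change 0.30 ± 0.09 SE, adjusted p = 0.0119 with edgeR) was above its BimS level with RIPK3 debris, and Mylip was below it (-0.15 ± 0.05, adjusted p = 0.0222). Abca1, at 0.29 ± 0.08, also passed, but it had been chosen as one of the largest falls, which with BimS debris placed it at rank 3 and with RIPK3 debris at rank 81, so its difference is a description. In cDC2s Abcg1 (0.27 ± 0.06, adjusted p = 0.000299) and Apoe (0.52 ± 0.14, adjusted p = 0.00311) were higher, and Mylip (-0.33 ± 0.10, adjusted p = 0.011) and Scd2 (-0.29 ± 0.08, adjusted p = 0.00371) were lower, with Abca1 at -0.27 ± 0.06. Abca1 thus had opposite signs in the cell types, Apoe was higher and Mylip lower in both, and Scd1 passed in neither. These 3 and 5 genes stand beside 1730 and 2755 genes of the whole table that passed with the block, against 810 and 73 without it.

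In WT medium cDC1s and cDC2s already differed in most of these genes. The fit of edgeR over all 17 samples gave 3 of 10 genes higher in cDC1s and 5 lower, beside 22.5% and 23.7% of all 19082 genes. Mylip was 3.67-fold higher in cDC1s (log2 fold change 1.88 ± 0.10, adjusted p = 4.27e-16), Scd1 2.84-fold higher (1.51 ± 0.09) and Abcg1 1.27-fold higher (0.34 ± 0.07, adjusted p = 0.000129). Abca1 was 2.66-fold lower in cDC1s (-1.41 ± 0.21), Scd2 2.2-fold lower (-1.14 ± 0.08, adjusted p = 2.78e-12) and Nr1h3 2.16-fold lower (-1.11 ± 0.28, adjusted p = 0.00133). Srebf1 (-0.61 ± 0.08, adjusted p = 1.01e-07) and Lpcat3 (-0.26 ± 0.09, adjusted p = 0.013) were lower as well. For all 8 genes the 3 cDC1 samples lay wholly on one side of the 3 cDC2 samples, as for 52.5% of all genes tested. The values of Scd1 and Abca1 are a description, since the WT samples were part of their choice. The pairs of related genes thus ran opposite ways, with Scd1 and Abcg1 higher in cDC1s and Scd2 and Abca1 higher in cDC2s. Apoe (0.45, 95% interval -0.02 to 0.92, adjusted p = 0.11) and Nr1h2 (-0.03, interval -0.17 to 0.11, adjusted p = 0.734) did not pass. Apoe passed without cDC2 WT replicate 3, its highest cDC2 sample (0.79, adjusted p = 0.000545), and Lpcat3 no longer passed without cDC1 WT replicate 2 (adjusted p = 0.0682) or 3 (adjusted p = 0.0599).

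Compared per kilobase of exon, the order of levels with WT medium also differed between the cell types. In cDC1s Nr1h2 (53.9 CPM per kilobase) was followed by Mylip (19.5 ± 1.90) and Abcg1 (18.3 ± 1.05), whose samples overlapped, then by Scd1 (12.1 ± 0.28) and Srebf1 (5.6 ± 0.28). Apoe (3.87 ± 0.42), Scd2 (3.22 ± 0.12), Abca1 (2.83 ± 0.29) and Lpcat3 (2.38 ± 0.16) came next, with overlap between Abca1 and Lpcat3, and Nr1h3 (0.175) was last. In cDC2s Nr1h2 (55.2) was followed by Abcg1 (14.4 ± 0.92), then by Srebf1 (8.54 ± 0.11), Abca1 (7.53 ± 1.97) and Scd2 (7.08 ± 0.83), of which Abca1 overlapped with both others. Mylip (5.31 ± 0.13), Scd1 (4.26 ± 0.31), Lpcat3 (2.85 ± 0.11), Apoe (2.83 ± 1.08) and Nr1h3 (0.381) closed the order, with Apoe overlapping both Lpcat3 and Scd1. All are means ± SD of 3 samples.

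**Figure D3:**
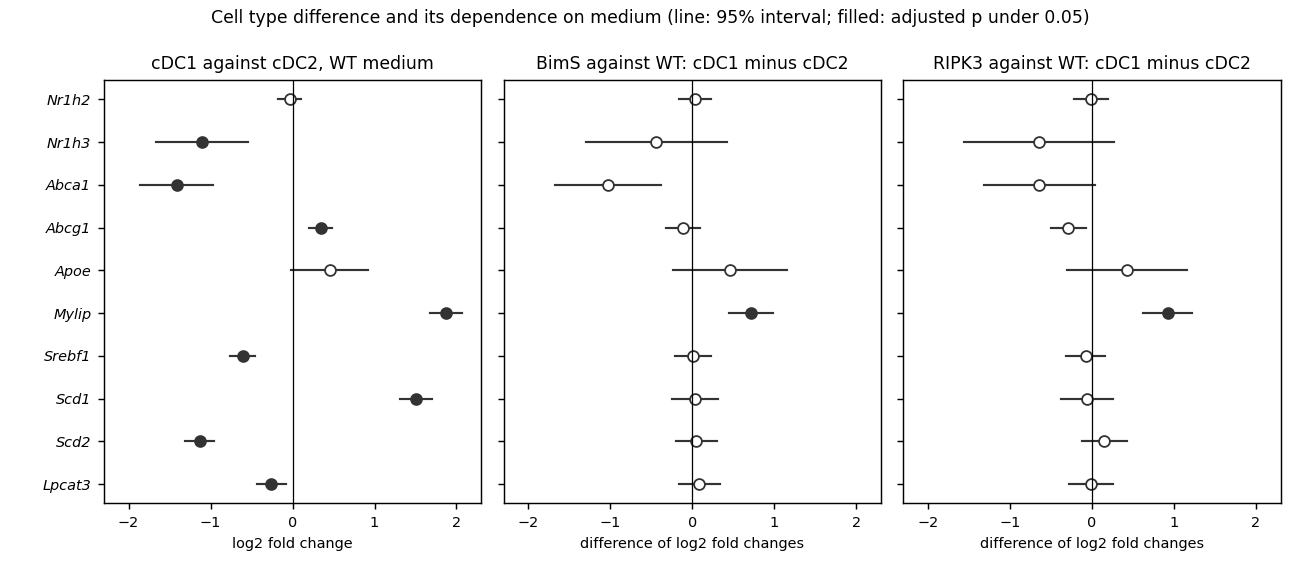
Left, log2 fold change of cDC1s against cDC2s in WT medium for the 10 genes. Middle and right, the log2 fold change of debris against WT medium in cDC1s minus that in cDC2s, for BimS and RIPK3 debris. Lines are 95% intervals and filled points had an adjusted p under 0.05 in edgeR; Mylip is filled in all 3 panels, at 1.88, 0.72 and 0.92.

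Whether the response to debris differed between the cell types was tested as an interaction over all 17 samples. Mylip alone passed, with a log2 response to BimS debris that was 0.72 ± 0.13 (SE) higher in cDC1s than in cDC2s (edgeR, adjusted p = 0.0032) and a response to RIPK3 debris that was 0.92 ± 0.15 higher (adjusted p = 0.000369). The 1 of 10 higher and 0 lower stand beside 0.561% and 0.309% of all genes for BimS debris, and beside 0.66% and 0.477% for RIPK3 debris. For Scd1 the cell types differed by 0.03 (95% interval -0.25 to 0.32) and -0.06 (-0.37 to 0.26), and for Scd2 by 0.05 (-0.20 to 0.30) and 0.15 (-0.12 to 0.43) and none passed. For Abca1 the difference was -1.03 (-1.68 to -0.38) with BimS and -0.65 (-1.32 to 0.03) with RIPK3 debris, and neither passed. DESeq2 called Abca1 for BimS debris (-1.05). At an unadjusted p under 0.05, edgeR had Abca1 lower for BimS and Abcg1 lower for RIPK3 debris. With a replicate block within each cell type Abca1 passed for both (-1.05 ± 0.09 and -0.51 ± 0.09), and Abcg1 passed for RIPK3 debris (-0.26 ± 0.07, adjusted p = 0.0171). Abca1 and Scd1 were chosen for their falls with debris, so their values here are a description.

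Genes with the most similar pattern were looked up over the samples of a cell type among all genes averaging 3 or more in log2 CPM. For Abca1 these were Skil, Rnf180 and Cep43 over the 9 cDC1 samples (Pearson's r of log2 CPM 0.978, 0.973 and 0.972) and Chd9, Mier1 and Bltp2 over the 8 cDC2 samples (0.996, 0.992 and 0.989). For Scd1 they were Klrk1, Orai2 and Cblb in cDC1s (0.991, 0.990 and 0.989) and Mcm7 and Napsa in cDC2s (0.989 and 0.983). None of the nearest genes was shared between the cell types. Within the 10 genes, Scd1 and Scd2 followed each other in both cell types (0.976 and 0.926), and Mylip ran against Abca1 in cDC1s (-0.950). In cDC1s these samples fall into groups by medium, and the points share their libraries, so the values describe the pattern only.

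Lists of related sterol and fatty acid genes were tested gene by gene with edgeR. Of all genes, 7.31% rose and 5.89% fell in cDC1s with BimS debris, and 8.34% and 8.19% with RIPK3 debris. In cDC2s 3.8% rose and 3.21% fell with BimS debris, and 3.93% and 3.28% with RIPK3 debris. Of 22 genes of SREBP2-driven cholesterol synthesis and uptake, 8 rose and none fell in cDC1s with BimS debris and 4 rose with RIPK3 debris, and in cDC2s 13 and 5 rose, with medians of 0.29, 0.09, 0.42 and 0.26. Sqle, squalene epoxidase, rose by 1.21 ± 0.13 and 0.64 ± 0.14 in cDC2s and by 0.99 ± 0.18 in cDC1s with BimS debris, and its value with RIPK3 debris in cDC1s (0.42 ± 0.19) did not pass. Between the debris types 3 of the 22 were lower with RIPK3 debris in cDC1s, beside 2.21% of all genes. Among them were Stard4 (-0.45 ± 0.12, adjusted p = 0.0207), a sterol carrier, and Srebf2, named after its value was seen (-0.25 ± 0.05, adjusted p = 0.00289). None passed between the debris types in cDC2s, where 18 of the 22 had lower values with RIPK3 debris, as did 50.7% of all genes, and 12 had both RIPK3 samples below every BimS sample, as did 12.5% of all genes. Only 73 of all genes passed there without the replicate block, against 2755 with it.

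Among 18 other genes of sterol transport and storage, 6 rose and 3 fell in cDC1s with BimS debris, 5 and 4 with RIPK3 debris, and 3 and 2 and then 3 and 1 in cDC2s. Of all genes, 7.31% rose and 5.89% fell, then 8.34% and 8.19%, 3.8% and 3.21%, and 3.93% and 3.28%, in the same order. Lipa, the lysosomal acid lipase that frees cholesterol from its esters, rose by 1.76 ± 0.06 (adjusted p = 1.57e-22) and 1.80 ± 0.06 in cDC1s and by 1.00 ± 0.09 and 0.90 ± 0.10 in cDC2s. Soat1, which turns cholesterol into esters for storage, rose by 0.91 ± 0.05 and 0.94 ± 0.05 in cDC1s, and in cDC2s its values of 0.11 and 0.05 did not pass. The responses of both differed between the cell types, by 0.76 ± 0.11 (adjusted p = 0.000133) and 0.89 ± 0.12 for Lipa and by 0.80 ± 0.11 and 0.89 ± 0.11 for Soat1. Abca3, a phospholipid transporter, fell in all 4 comparisons (-0.27, -0.32, -0.51 and -0.49).

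Of 14 other LXR targets, 11 were tested in cDC1s and 12 in cDC2s. In cDC1s 2 rose and 2 fell with BimS debris and 2 rose and 1 fell with RIPK3 debris, and in cDC2s 2 rose and none fell with either. Of all genes, 7.31% rose and 5.89% fell, then 8.34% and 8.19%, in cDC1s, and 3.8% and 3.21%, then 3.93% and 3.28%, in cDC2s. Cd36, a scavenger receptor, rose in all 4 comparisons (0.49 ± 0.05, 0.61 ± 0.05, 0.83 ± 0.08 and 0.59 ± 0.09). Arl4c, a small GTPase, also rose in all 4 (0.27 ± 0.05, 0.36 ± 0.05, 0.44 ± 0.07 and 0.78 ± 0.08). Ccr7, the chemokine receptor of migrating dendritic cells, fell in cDC1s (-0.56 ± 0.11 and -0.68 ± 0.11), and its values of -0.20 and -0.31 in cDC2s did not pass. Of 11 tested partners and coregulators of LXR, 2 rose and 2 fell with either debris in cDC1s and 1 rose in cDC2s. These counts stand beside the same shares of all genes. Rxra, the partner receptor, rose in all 4 comparisons, by 0.48 ± 0.08 (adjusted p = 1.41e-05) and 0.45 ± 0.08 in cDC1s and by 0.54 ± 0.10 (adjusted p = 0.00206) and 0.45 ± 0.12 in cDC2s.

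Of the genes that make or clear oxysterols, 5 were tested in cDC1s and 7 in cDC2s. In cDC1s 1 rose and 1 fell with either debris, and in cDC2s 1 rose and 1 fell with BimS debris and 1 rose and none fell with RIPK3 debris. Of all genes, 7.31% rose and 5.89% fell with BimS debris in cDC1s, and 8.34% and 8.19% with RIPK3 debris. In cDC2s these shares were 3.8% and 3.21%, then 3.93% and 3.28%. Cyp27a1, a sterol hydroxylase, fell by 0.37 ± 0.09 and 0.56 ± 0.09 in cDC1s and by 0.68 ± 0.19 in cDC2s with BimS debris, and its value with RIPK3 debris (-0.54 ± 0.21) did not pass. Of 20 tested genes of SREBP1-driven fatty acid synthesis, 2 rose and 3 fell in cDC1s with BimS debris, 3 and 4 with RIPK3 debris, and in cDC2s 4 and 3 and then 3 and 2. The same shares of all genes apply here. Acss2, which makes acetyl-CoA from acetate, rose in all 4 comparisons (0.84, 0.99, 1.34 and 1.09), and the elongase Elovl5 fell in all 4 (-0.72, -0.67, -0.63 and -0.43). The list of 7 other tested LPCAT and membrane desaturation genes had 1 rise and 2 falls in cDC1s with either debris and 1 fall in cDC2s with either. They too stand beside the shares of all genes given above. Lpcat1 fell in all 4 comparisons (-0.26, -0.44, -0.42 and -0.60). Acsl4 rose in cDC1s by 0.29 and 0.42, and its values of 0.14 and 0.23 in cDC2s did not pass.

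**Figure D4:**
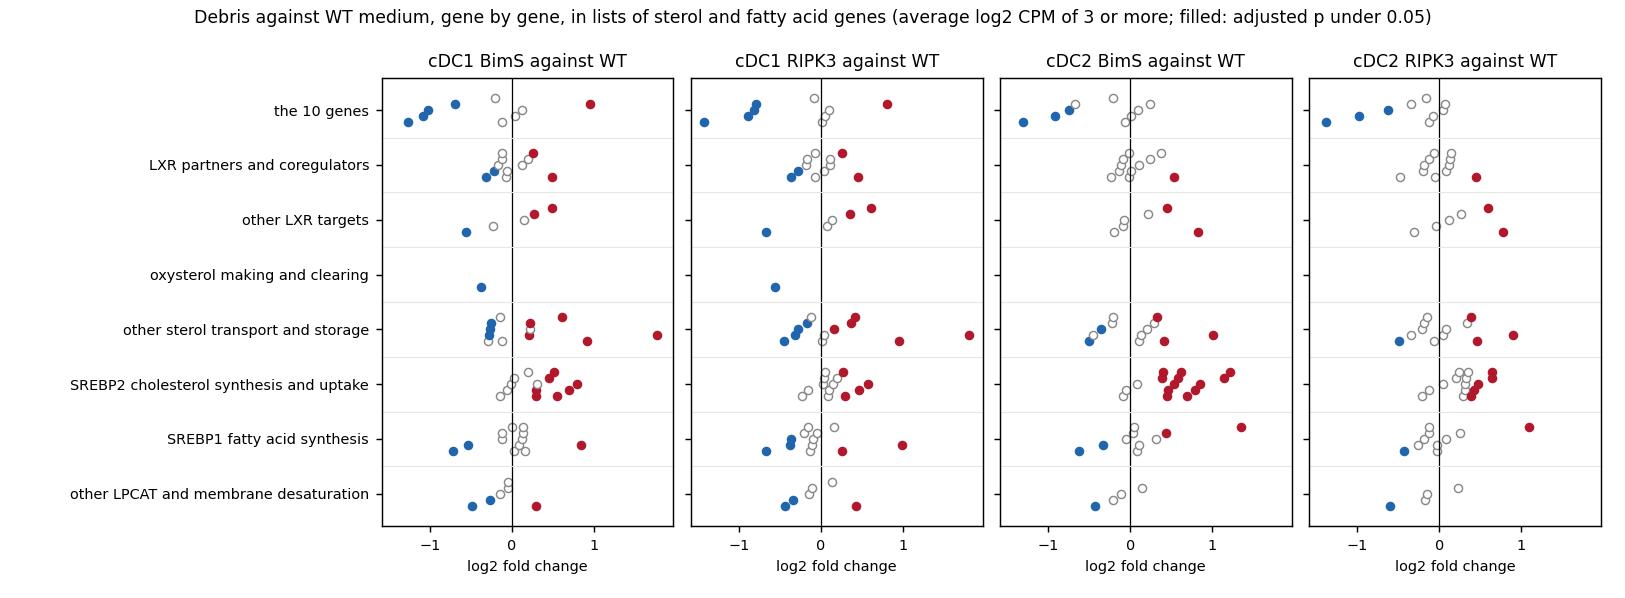
Log2 fold change of debris against WT medium (horizontal axes) for single genes of the 10 genes and of 7 lists, in cDC1s and cDC2s. Points are genes averaging 3 or more in log2 CPM, spread vertically for display; filled points had an adjusted p under 0.05, red higher and blue lower. Of the 10 genes, Abcg1, Scd1 and Scd2 are filled to the left in both cell types. Abca1 is filled to the left and Mylip to the right in cDC1s only. Filled genes of cholesterol synthesis and uptake all lie to the right.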

How the data were processed

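RNA was measured in 17 sorted samples. Per the labels and the methods, the authors trimmed reads with SeqPurge, aligned them to GRCm39 with STAR 2.7.10a and used gensum to count reads in each Ensembl gene. These deposited counts are not normalized. The second deposited table, log2 values of the same counts, was not used here. Of 31239 lines, 148 carry no gene identifier (0.0258% to 0.0366% of the counts of a sample) and were left out.

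Differences were tested with the quasi-likelihood test of edgeR 4.0.16 in R 4.3.3 (TMM, robust) on genes that had a count above 0 in 50% or more of the fitted samples, with Benjamini-Hochberg adjustment over all genes and a threshold of 0.05. All adjusted p-values come from edgeR. Each cell type was fitted separately for the media, and all 17 samples together for the cell types and interactions. Levels are CPM, and log2 CPM used a prior count of 2. Lengths and coordinates are from GENCODE M39, which matched 30854 of 31091 genes. Reads carry no molecular identifiers, so precision from depth covers counting error only.

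The 10 genes and all lists were chosen with earlier results of these data known. Besides the 10 genes, the genes named are, per list and comparison of media, the 2 with the largest change among those that passed and averaged 3 or more in log2 CPM, and the 3 most similar to Abca1 and Scd1. Some genes that this rule names are not reported here. Replicate numbers come from the labels. After removal of group means, all 9 same-numbered pairs in cDC1s (median r 0.279) and all 7 in cDC2s (0.398) correlated above 0.1, against 1 of 18 and 3 of 14 pairs with different numbers, so the numbers pair samples within a cell type. Replicates of a group differed by more than sampling noise. The alternatives were DESeq2 1.42.0, RLE size factors, filterByExpr, no filter, limma 3.58.1 on log2(count + 1) without normalization, the replicate block and leaving out each sample. The procedure was tested on simulated data, where it recovered most of the changed genes and its share of false calls lay above the nominal one.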

Additional observations from a re-analysis of the deposited data

Results flagged for a closer look

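The response of Mylip to debris differed between the cell types by the test of the difference itself. The log2 fold change against WT medium was higher in cDC1s than in cDC2s by 0.718 ± 0.133 (SE) with BimS debris (edgeR, adjusted p = 0.0032) and by 0.924 ± 0.146 with RIPK3 debris (adjusted p = 0.000369). All 3 cDC1 samples with each debris lay above the 3 with WT medium, whereas in cDC2s the 3 samples with BimS debris lay above WT and the 2 with RIPK3 debris below it. The 2 comparisons share the WT samples of each cell type. Mylip was added with earlier results of these data known, and its p-values do not account for that choice.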

How the results depend on the processing

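Over the 10 genes, 9 comparisons and all alternatives, 1460 values kept their direction and side of the threshold, 28 passed only under the alternative and 5 lost their call. Another 67 changed sign without passing in either fit, such as Nr1h3 in cDC2s with RIPK3 debris (-0.06, and 0.04 with the replicate block), and none that passed changed sign. The cause was not tested for any of them. Calls lost were Abca1 in cDC1s with RIPK3 debris, without cDC1 WT replicate 1 or cDC1 RIPK3 replicate 1, and Lpcat3 between the cell types under limma (-0.10) and without cDC1 WT replicate 2 (-0.23) or 3 (-0.23). Apoe passed between the cell types under DESeq2 (0.47), no filter (0.46), limma (0.67) and without cDC2 WT replicate 3 (0.79). Apoe in cDC2s with BimS debris passed with no filter, under limma and without cDC2 WT replicate 1.

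The replicate block gave 1730 genes in all between RIPK3 and BimS debris in cDC1s and 2755 in cDC2s, with 3 and 5 of the 10 genes. It gave 4103 genes for BimS (6 of the 10) and 4126 for RIPK3 (4 of the 10, with Abca1 added) against WT in cDC2s, and 957 and 964 for the interactions with BimS and RIPK3 (2 and 3 of the 10). Across the cell types, 19 of 24 same-numbered pairs correlated above 0.1, against 4 of 48 pairs with different numbers. Between the cell types in WT medium, Apoe also passed with the block. It changed no other call of the 10 genes.

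Under limma the counts of all genes were 1510 for BimS against WT and 403 for RIPK3 against BimS in cDC1s, 148 for RIPK3 against BimS in cDC2s, and 67 and 109 for the interactions. No filter gave 300 between the debris types in cDC2s, 315 and 371 for the interactions, and 2 of the 10 genes (Abca1 and Apoe) between the debris types in cDC1s. DESeq2 gave 141 between the debris types in cDC2s, and 261 for the interaction with BimS with 2 of the 10 genes (Mylip and Abca1). With filterByExpr 46 genes passed between the debris types in cDC2s.

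Leaving out 1 sample at a time gave 489 to 1027 genes between the debris types in cDC1s (0 to 1 of the 10, Abca1 without BimS replicate 2 or Apoe without RIPK3 replicate 1) and 0 to 214 in cDC2s. It gave 783 to 1504 for BimS and 622 to 1819 for RIPK3 against WT in cDC2s, and 93 to 234 and 111 to 258 for the interactions. Without either cDC2 RIPK3 replicate, the lone sample is assumed to vary like the other groups.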
